A study of Homo sapiens with 76 samples.

Results

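The genes described here are the nuclear genes of mitochondrial complex III, cytochrome c, complex IV and ATP synthase in single HEK293 cells. They were taken by symbol: every gene whose name starts with UQCR, with COX4 to COX8 or with ATP5, plus CYC1 and CYCS, without names that end in a pseudogene suffix. This gave 39 of the 17513 genes counted: 8 genes of complex III, CYCS, 11 genes of complex IV or its 7a family, 15 subunit genes of ATP synthase and 4 genes with an ATP5 name that are not counted as subunits here. The rule itself uses symbols and no measured value. HEK293 is an established human embryonic kidney line. All 76 cells were untreated HEK293 cells grown in DMEM with fetal calf serum, and the labels name no other group, so no condition could be compared and no test was made. The cells were caught in the 96 chambers of a Fluidigm C1 chip and lysed with ERCC spike-in RNA, 20000 molecules per cell as stated. Their polyadenylated RNA was copied from an oligo-dT primer, tagged at the 5′ end with a unique molecular identifier (UMI) by template switching, amplified by 18 PCR cycles, and only the 5′ end fragments were sequenced.

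The respiratory chain passes electrons from NADH and succinate to oxygen in the inner mitochondrial membrane. Complex III takes them from ubiquinol to cytochrome c, complex IV passes them from cytochrome c to oxygen, and both steps move protons or charge across the membrane. ATP synthase lets the protons flow back through its ring of c subunits, whose rotation drives ATP formation in the F1 head. The catalytic core of complex IV, cytochrome b of complex III and a few ATP synthase subunits are encoded in mitochondrial DNA, so that nuclear and mitochondrial transcripts have to supply the same complexes. Most of the nuclear subunits are short proteins that surround these cores.

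A UMI stands for 1 captured mRNA molecule, so that values are molecules per gene and are not divided by transcript length. Gene UMIs per cell ranged from 7305 to 43392, with a median of 20966. No 2 cells held identical values. Of the marker genes of the line, 6 of 6 were detected (VIM, KRT8, KRT18, NEFM, NEFL and UCHL1, 1053 UMIs in all), while 1 of 4 listed blood markers, 1 of 4 for muscle, 2 of 3 for liver and 1 of 3 for fibroblasts were analysed here and gave 5, 2, 1 and 12 UMIs. The cells are units of observation and not replicates: each SD is the spread among cells of 1 run, and it is not known whether they came from 1 culture. No doublet call was made. Intervals cover counting error only.

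Sequences upstream of 7 genes are shown because they carry the promoter elements whose frequency among the 39 genes is given further on. Each is read 5′ to 3′ on the gene's strand from RefSeq (GRCh38.p14), starts 150 bases before the annotated start of transcription, and ends before the first base of the gene in GENCODE 29. The runs lie at chr5:86617791-86617903 (plus strand) for COX7C, chrX:77899318-77899437 (plus) for COX7B, chr22:29767219-29767368 (plus) for UQCR10, chr2:97645912-97646039 (plus) for COX5B, chr4:674339-674426 (minus) for ATP5I, chr17:48892637-48892764 (plus) for ATP5G1 and chr7:25125362-25125410 (minus) for CYCS. Capitals mark CTACANNTC in COX7C, COX7B and UQCR10, GCATGCGC or its reverse complement in COX5B and ATP5I, CCGGAAGT in the 3′ part of COX5B, and CCAAT or its reverse complement in ATP5G1 and CYCS.
COX7C: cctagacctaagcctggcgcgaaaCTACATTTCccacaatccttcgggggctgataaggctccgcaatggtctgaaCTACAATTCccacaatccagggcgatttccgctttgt
COX7B: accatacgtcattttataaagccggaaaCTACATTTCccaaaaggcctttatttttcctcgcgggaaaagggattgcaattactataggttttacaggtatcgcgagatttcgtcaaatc
UQCR10: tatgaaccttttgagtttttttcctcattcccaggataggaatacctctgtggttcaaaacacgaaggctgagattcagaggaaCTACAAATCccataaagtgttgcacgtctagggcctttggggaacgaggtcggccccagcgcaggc
COX5B: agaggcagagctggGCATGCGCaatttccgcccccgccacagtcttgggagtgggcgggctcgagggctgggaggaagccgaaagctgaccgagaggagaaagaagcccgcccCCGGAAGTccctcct
ATP5I: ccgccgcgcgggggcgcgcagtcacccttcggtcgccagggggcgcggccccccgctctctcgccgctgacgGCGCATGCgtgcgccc
ATP5G1: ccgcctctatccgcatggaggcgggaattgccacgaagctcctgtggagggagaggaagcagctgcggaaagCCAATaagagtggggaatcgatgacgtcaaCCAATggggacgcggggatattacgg
CYCS: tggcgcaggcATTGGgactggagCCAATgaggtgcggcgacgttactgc

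Together the 39 genes gave 2.92% ± 0.343 of a cell's gene UMIs (SD over 76 cells). The lowest cell had 1.92%, the median cell 2.94% and the highest 3.64%, or 234, 601 and 1258 UMIs as the lowest, median and highest count. Counting alone would give an SD of 0.123 percentage points, and the coefficient of variation beyond counting was 10.97%. From the spike-in yield, the median was an estimated 5401 molecules of these mRNAs per cell, if cellular and spike-in RNA were captured alike. ATP synthase genes made up the most with 1.25% ± 0.165 of gene UMIs, complex IV genes 1.01% ± 0.155, complex III genes 0.585% ± 0.0980 and CYCS 0.0666% ± 0.0270.

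The balance between the complexes varied by somewhat more than counting error. ATP synthase took 42.9% ± 2.98 of the 39 genes' UMIs (lowest 34.1%, median 42.96%, highest 49.8%), complex IV 34.5% ± 2.94 (27.7%, 34.6% and 44.3%) and complex III 20.1% ± 2.59 (13.7%, 20.1% and 26.1%). Counting at these depths would give SDs of 2.12, 2.03 and 1.71 percentage points. Spike-in RNAs also varied beyond counting, as given further on, and the excess seen here was not set against theirs. The lowest ATP synthase share in any cell was above the highest complex III share in any cell.

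Most of the genes were seen in nearly every cell. A UMI was present in every cell for 26 of the 39 genes, against 311 of all 17513 genes (1.78%), and in at least 70 cells for 34 genes. The mean was 1 UMI per cell or more for 35 genes and 10 UMIs or more for 25. The 5 most abundant genes held 29.3% and the 10 most abundant 50.8% of the UMIs. Among the 35 genes the highest mean, of COX7C, was 18.3 times the lowest, of UQCRC1.

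**Figure D1:**
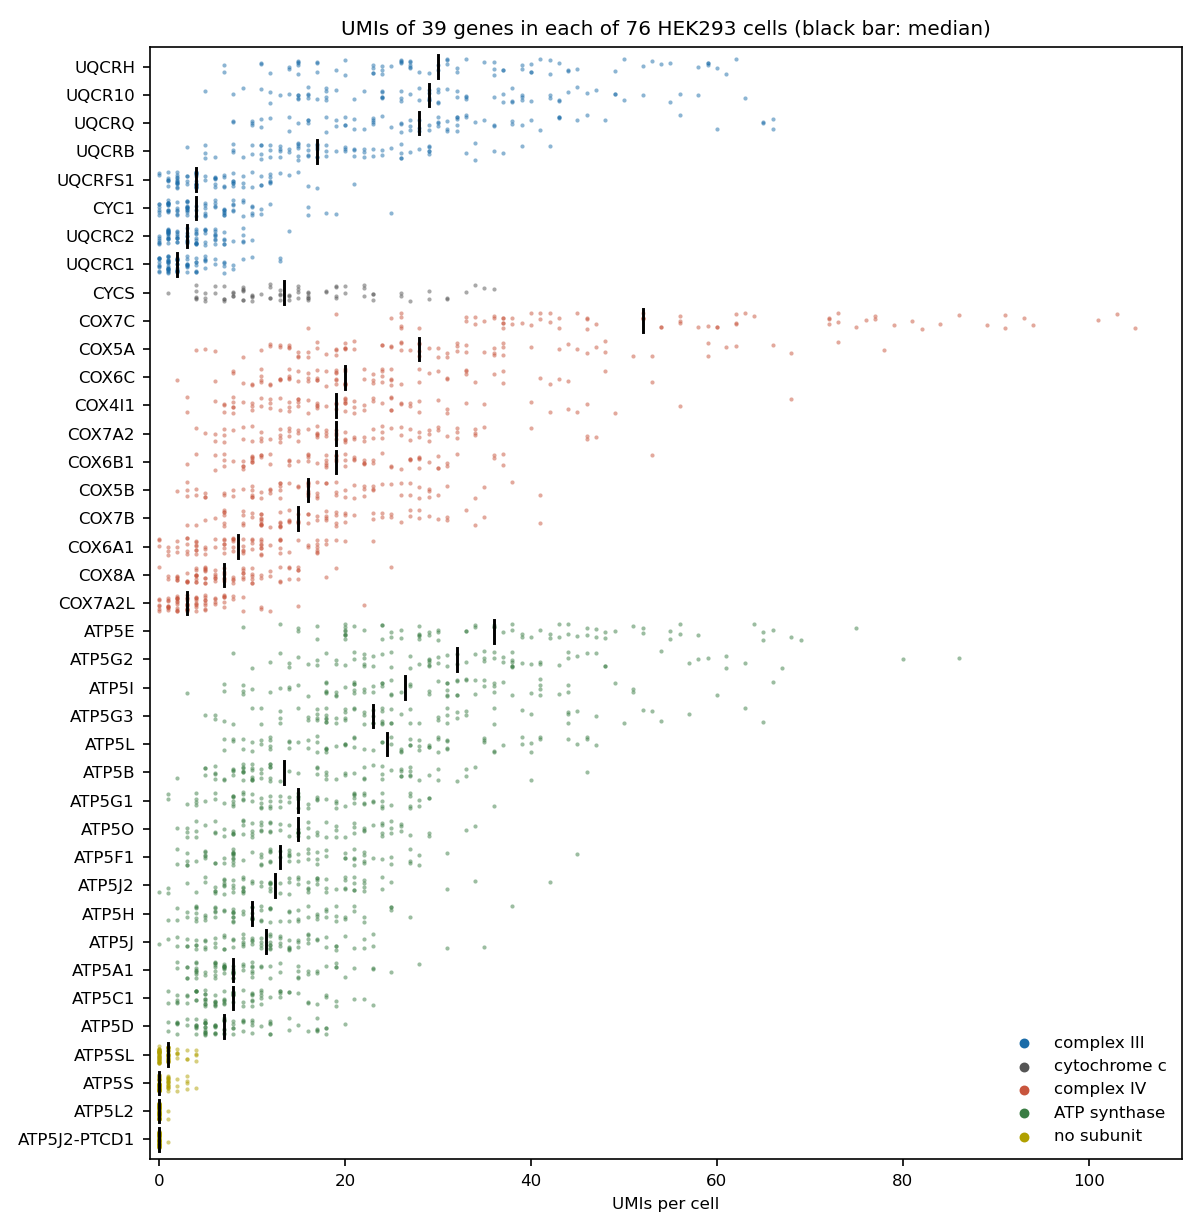
UMIs per cell (x axis) of each of the 39 genes (y axis, grouped by complex), with 1 point for each of 76 HEK293 cells and a black bar at the median; points are spread vertically for sight only. COX7C has the highest median, 52 UMIs, and the 4 lower complex III genes have medians of 2 to 4 UMIs.

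In complex III the small subunits and the large ones stood apart. The hinge protein gene UQCRH, whose acidic protein helps cytochrome c1 meet cytochrome c, had 7 UMIs in the lowest cell, 30 in the median cell and 62 in the highest. UQCR10, a small membrane subunit, had 5, 29 and 63 UMIs, and UQCRQ, another small membrane subunit, had 8, 28 and 66. Pooled over cells, UQCR10 and UQCRQ gave 13.4 (95% exact Poisson interval 12.8 to 13.9) and 13.2 (12.7 to 13.8) UMIs per 10000 gene UMIs, so their order is within counting error. UQCRB, which helps form the membrane part near the ubiquinone site, was lower, with 3, 17 and 42 UMIs.

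The remaining 4 complex III genes were, with COX7A2L, the 5 lowest of the 35. UQCRFS1, the Rieske iron-sulfur protein that takes electrons from ubiquinol, had 0, 4 and 21 UMIs in the lowest, median and highest cell and was seen in 74 of 76 cells. CYC1, cytochrome c1, which hands electrons to cytochrome c, had 0, 4 and 25 UMIs and was seen in 70 cells. The core proteins UQCRC2 (0, 3 and 14 UMIs, 70 cells) and UQCRC1 (0, 2 and 13 UMIs, 66 cells), the large matrix-facing scaffold, were lower still. Summed, the 4 small subunit genes gave 0.505% ± 0.0948 of gene UMIs and the 4 core and catalytic genes 0.0805% ± 0.0316 (SD over 76 cells). The lowest cell of the small genes, at 0.260%, was above the highest cell of the core and catalytic genes, at 0.220%. The subunits of complex III are present in equal number in each unit of the enzyme, and these UMI levels were not equal.

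CYCS encodes the cytochrome c expressed in body tissues, the soluble electron carrier between complexes III and IV and a trigger of apoptosis when released. It had 1 UMI in the lowest cell, 13.5 in the median cell and 36 in the highest, and was present in every cell.

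Complex IV contained the most abundant gene of all 39. COX7C, a short membrane subunit, had 16 UMIs in the lowest cell, 52 in the median cell and 105 in the highest. At 24.7 UMIs per 10000 (23.9 to 25.4) it was above ATP5E, next in order at 16.6 (15.98 to 17.2), by more than counting error. However, COX7C and ATP5E share 27.8% and 22.7% of the 25-base runs in their first 200 transcript bases with annotated pseudogenes. Counting error does not cover that uncertainty. COX5A, a matrix-side subunit, had 4, 28 and 78 UMIs.

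A middle group of complex IV genes had similar levels. COX6C, a membrane subunit, had 2, 20 and 53 UMIs in the lowest, median and highest cell, and COX4I1, the widely expressed isoform of the largest nuclear subunit, had 3, 19 and 68. COX7A2, the widely expressed 7a isoform, had 4, 19 and 47 UMIs, and COX6B1, which lies on the side facing cytochrome c, had 3, 19 and 53. Pooled levels of COX4I1 and COX7A2 were 9.35 (8.90 to 9.82) and 9.24 (8.79 to 9.71) per 10000, within counting error of each other. COX5B, the zinc-binding subunit, had 2, 16 and 41 UMIs, and COX7B had 3, 15 and 41.

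The low complex IV genes were COX6A1, COX8A and COX7A2L. COX6A1, the widely expressed 6a isoform, had 0, 8.5 and 23 UMIs in the lowest, median and highest cell and was seen in 73 cells, and COX8A, the widely expressed subunit 8, had 0, 7 and 25 and was seen in 75. COX6A1 shares 42.0% of the 25-base runs in its first 200 transcript bases with annotated pseudogenes, so its level is uncertain. COX7A2L, a relative of COX7A2 that helps join complexes III and IV into supercomplexes, had 0, 3 and 22 UMIs and was seen in 70 cells. Of the 1883 UMIs of COX7A2 and COX7A2L, COX7A2 gave 83.1% (95% exact binomial interval 81.3% to 84.7%) and COX7A2L 16.9% (15.3% to 18.7%). COX4I2, COX6A2, COX6B2, COX7A1, COX7B2 and COX8C, genes for tissue-specific isoforms, were not analysed here, nor were UQCR11 and UQCRHL.

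In ATP synthase the F1 genes covered a wide range. ATP5E, the short epsilon subunit of the central stalk, had 9 UMIs in the lowest cell, 36 in the median cell and 75 in the highest. The beta subunit gene ATP5B, which carries the catalytic sites, had 2, 13.5 and 46, and the alpha subunit gene ATP5A1 had 2, 8 and 28. ATP5C1, the gamma subunit that forms the rotating shaft, had 1, 8 and 23, and ATP5D, the delta subunit at its foot, had 1, 7 and 20. The head contains 3 copies each of alpha and beta for 1 copy each of gamma, delta and epsilon. The order of the UMI levels did not follow that ratio. ATP5E, with 51 codons, exceeded ATP5B, with 529, at 16.6 (15.98 to 17.2) against 7.596 (7.19 to 8.02) UMIs per 10000. Whether mRNA length alters the capture of 5′ ends was not tested.

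The 4 genes of the peripheral stalk, which holds the head still, were of middle level. ATP5O (OSCP, at the top of the stalk) had 2, 15 and 34 UMIs in the lowest, median and highest cell, ATP5F1 (subunit b) 2, 13 and 45, ATP5J (subunit F6) 0, 11.5 and 35, and ATP5H (subunit d) 1, 10 and 38. ATP5O and ATP5F1, at 6.81 (6.42 to 7.21) and 6.37 (5.99 to 6.76) per 10000, were above ATP5H and ATP5J by more than counting error. ATP5H shares 52.8% of the 25-base runs in its first 200 transcript bases with annotated pseudogenes, so its level is uncertain. Levels of ATP5H and ATP5J overlapped, at 5.37 (5.02 to 5.73) and 5.25 (4.91 to 5.61) per 10000. Their sum was 0.239% ± 0.0613 of gene UMIs, against 0.368% ± 0.0698 for the 5 genes of the F1 head and central stalk.

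Among small membrane subunits, ATP5I (subunit e) had 3, 26.5 and 66 UMIs in the lowest, median and highest cell. ATP5L (subunit g) had 7, 24.5 and 47, and ATP5J2 (subunit f) had 0, 12.5 and 42. Subunits e and g help ATP synthase form dimers. ATP5J2 shares 89.2% of the 25-base runs in its first 200 transcript bases with other annotated genes, among them the read-through gene ATP5J2-PTCD1, and its level is therefore uncertain.

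The c ring is built from 1 mature protein encoded by 3 genes that differ in their import sequences. ATP5G2 had 8, 32 and 86 UMIs in the lowest, median and highest cell, ATP5G3 had 5, 23 and 65, and ATP5G1 had 1, 15 and 36. Of their 5771 UMIs, ATP5G2 gave 44.9% (95% exact binomial interval 43.6% to 46.2%), ATP5G3 34.6% (33.4% to 35.9%) and ATP5G1 20.4% (19.4% to 21.5%). No gene supplied the subunit alone, and the order was not the same in every cell. ATP5G2 was the highest of the 3 in 56 cells, ATP5G3 in 18 and ATP5G1 in 1, with a tie in 1 cell. The share of ATP5G2 per cell was 45.3% ± 9.12 (25.8% to 65.5%). In their first 200 transcript bases the 3 genes share no 25-base run with one another, although ATP5G1 shares 19.9% of its runs with annotated pseudogenes.

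The 4 ATP5 names outside the subunit group were near the floor. ATP5SL, a factor in assembly of complex I, was seen in 40 cells and ATP5S, coupling factor B, in 25. ATP5L2, a copy of the subunit g gene, had 2 UMIs in all against 1861 for ATP5L, and ATP5J2-PTCD1 had 1. The 18 pseudogene names left out by the rule held 146 UMIs, or 0.299% of those of the 39 genes. Of the 39, 14 share at least 1 run of 25 bases near the 5′ end with another of the 39 or an annotated pseudogene. More than 0.5 of the runs are shared for 3 of them (ATP5J2, ATP5J2-PTCD1 and ATP5H). Other genes were not searched for such runs, so more may be shared. Exons of 9 overlapped another gene on the same strand and of 15 a gene on the opposite strand. How reads of such places were counted is not given in the sources used here.

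Level and coding length were related across genes. Coding length was taken from GENCODE 29 as the longest among a gene's transcripts marked principal, or among all coding ones where none was. Over the 35 genes with a mean of at least 1 UMI, Spearman's rho between mean UMIs and coding length was -0.55. It was -0.34 over 2643 of the 2810 genes of that mean, the ones with a coding length. Genes are not independent replicates, and the points share 1 set of libraries. Within complexes rho was -0.93 in complex III (8 genes), -0.54 in ATP synthase (15 genes) and 0.0545 in complex IV (11 genes, none over 169 codons). The 23 genes of up to 150 codons had a median of 20.6 mean UMIs and the 12 longer genes a median of 9.31. ATP5B, with 529 codons, had a mean of 16.9 UMIs, above COX8A (7.64) with 69 codons, so length did not order single genes. How the capture of 5′ ends depends on mRNA length was not tested.

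**Figure D2:**
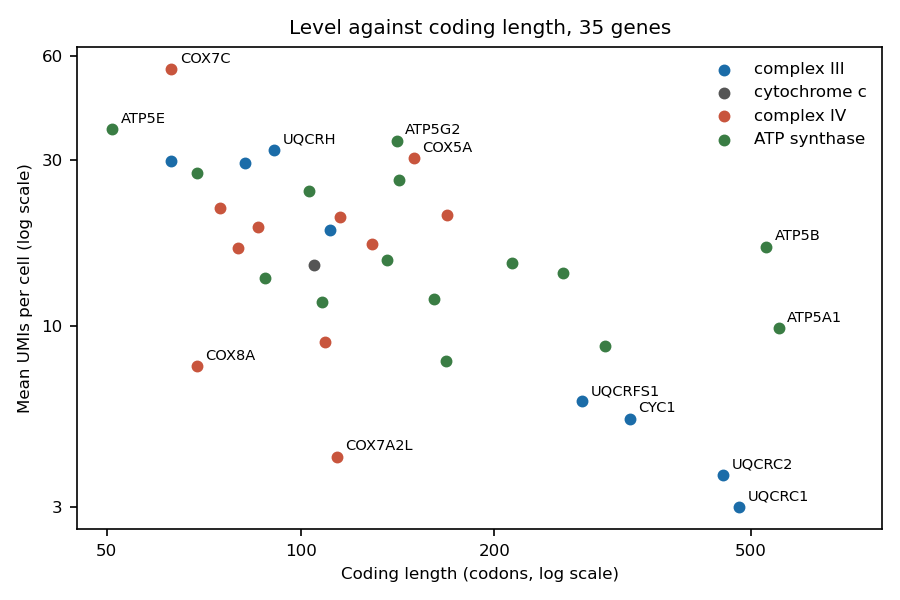
Mean UMIs per cell (y axis, log scale) against coding length in codons (x axis, log scale) for the 35 genes with a mean of at least 1 UMI, coloured by complex. The 4 long complex III genes lie at the lower right, from UQCRC1 (3.00) to UQCRFS1 (6.05), and ATP5B (16.9) and ATP5A1 (9.86) lie above them at greater length.

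Cell-to-cell spread was then set against that of the spike-ins. For each gene, the Pearson dispersion is the squared deviation from the count that the cell's total predicts, divided by that count and averaged over cells, so that pure counting gives 1. The highest value among 36 spike-in RNAs with a mean of at least 1 UMI, 2.20, served as the limit (their median was 1.53). Of the 35 genes, 14 lay above it, or 40%, against 606 of 2810 genes (21.6%). Dispersion grows with abundance, however: with a mean of at least 10 UMIs, 12 of 25 genes of the set lay above it, or 48%, against 217 of 314 genes (69.1%). With spike-in totals in place of gene totals as the scale, which leaves differences in total RNA between cells in the values, 35 of 35 and 1314 of 2810 genes (46.8%) lay above the limit.

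The highest dispersions were those of ATP5G2 (3.37), COX7C (3.15) and ATP5E (3.10), which are also the 3 most abundant genes. COX4I1 followed with 2.96 and UQCR10 with 2.92. The lowest were COX6A1 (1.60), COX8A (1.66) and UQCRC2 (1.67). The squared coefficient of variation beyond counting had a median of 0.0667 in the 35 genes, 0.265 in all genes tested and 0.0621 in the spike-ins. It falls with abundance, and the median gene of these sets had a mean of 16.8, 2.32 and 7.72 UMIs, so these values are not on equal terms. At means of at least 10 UMIs it was 0.0574 in the 25 genes and 0.0666 in all 314. The dispersion of all 13 mitochondrial mRNAs, which encode subunits of complex I as well as of these complexes, was above the limit, with a median of 10.4.

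**Figure D3:**
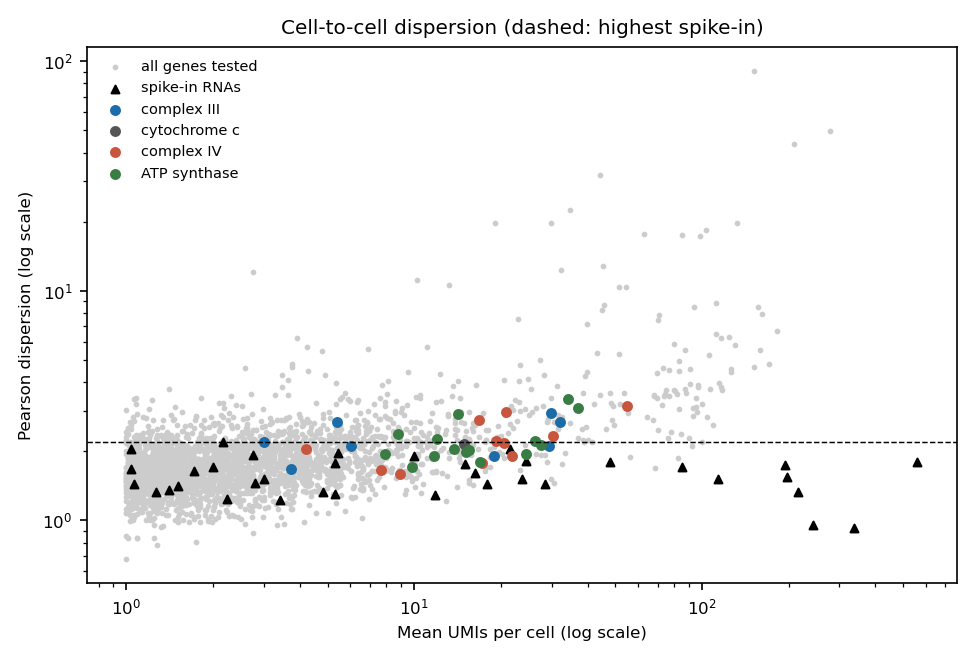
Pearson dispersion over 76 cells (y axis, log scale) against mean UMIs per cell (x axis, log scale) for all 2810 genes tested (grey), 36 spike-in RNAs (black triangles) and the 35 genes described, coloured by complex. The dashed line is the highest spike-in, 2.20, and 14 coloured points lie above it.

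Single genes of the set varied together only weakly. Over 595 pairs, the mean Spearman rho of their shares across 76 cells was 0.0644, against 0.0140 over all pairs of the 2810 genes tested, and 64.9% of pairs were positive against 54.5%. With means of at least 10 UMIs it was 0.104 in the set and 0.0329 in all such genes. Pairs within a complex had a mean of 0.0699 and pairs between complexes 0.0619, values close to each other. In counts this sparse a weak correlation is no finding, and all shares of a cell are taken of the same total.

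By complex, pairs averaged 0.0934 in complex IV, 0.0693 in ATP synthase and 0.0259 in complex III. The highest single pairs were ATP5C1 with COX7A2 (0.53), ATP5F1 with ATP5G2 (0.45) and COX7B with CYCS (0.41), and the lowest was ATP5D with CYCS (-0.30). Of these 4 pairs, ATP5F1 with ATP5G2 lay within a complex. Set against the sum of the other genes, the 35 genes had a median rho of 0.23. Over 1061 genes outside the set with a mean of at least 3 UMIs, the median rho with the summed share was 0.00504. Over the 81 ribosomal protein genes among them it was 0.21, near that of the set. Of the 35 genes, COX7C (0.54), COX7A2 (0.49), COX7B (0.48) and CYCS (0.46) were the highest. UQCRFS1 (-0.17), UQCRC1 (-0.15), ATP5D (-0.0968), ATP5A1 (-0.0450), CYC1 (-0.0337) and ATP5B (-0.0229) were negative but near 0. All 6 have over 150 codons, from 168 in ATP5D to 553 in ATP5A1, but 12 of the 35 genes do. The others of those 12 had a positive rho, up to 0.37 for ATP5C1 with 297 codons.

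**Figure D4:**
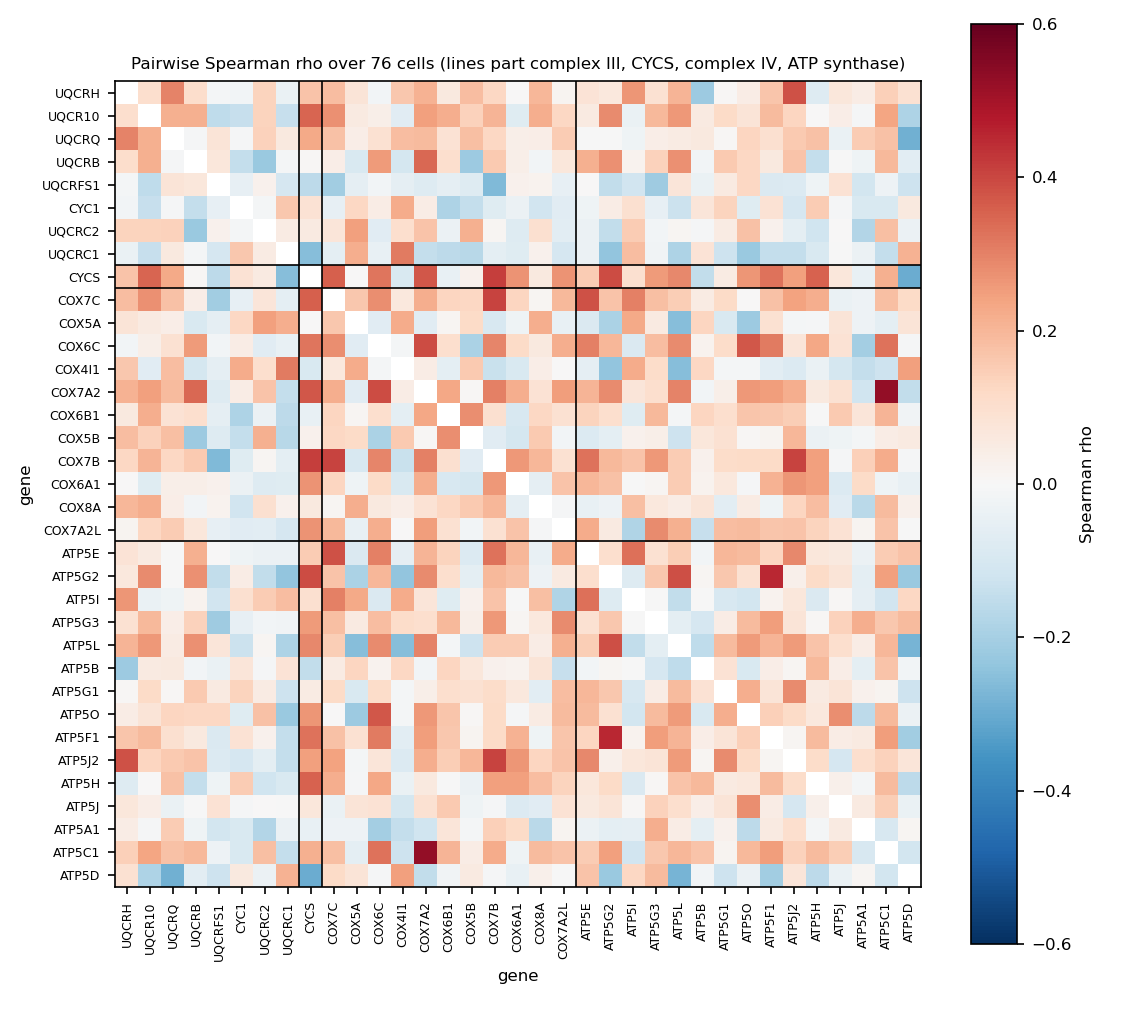
Spearman rho over 76 cells between the shares of each pair of the 35 genes (rows and columns, in the order complex III, CYCS, complex IV, ATP synthase, parted by black lines; diagonal left blank). Values run from -0.30 to 0.53, and the row of CYCS and the rows of COX7A2 and COX7B hold many of the darker red squares while no block stands out along the diagonal.

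Summed shares, which carry less counting error, were more closely related. Complex IV and ATP synthase had a Spearman rho of 0.51 over 76 cells (Pearson r 0.50, and 0.53 without the 2 cells farthest from the median). Complex III had 0.27 with complex IV and 0.33 with ATP synthase (r 0.35 and 0.37, and 0.31 and 0.34 without such cells). Thinned to 10940 UMIs per cell, which leaves 71 cells, rho of complex IV with ATP synthase was 0.32. These values are descriptions: the cells come from 1 run and differ in depth, and the shares of a cell are parts of the same total.

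The sum of the 39 genes was related to some other lists. Its Spearman correlation was 0.54 with the nuclear complex I (NDUF) genes (r 0.60, 0.57 without 2 cells), 0.46 with ribosomal protein genes (r 0.50, 0.47) and 0.0531 with glycolysis genes (r 0.0911, 0.0171). The relation to the summed share of 591 genes with at least 500 codons was negative and larger in size, with rho -0.68 (r -0.72, -0.68), and the ribosomal protein genes had rho -0.74 with the same share. ATP5A1 and ATP5B are among both the 39 genes and these 591. As a partial rho given that long-gene share, the values were 0.25 with the NDUF genes and -0.0749 with ribosomal protein genes. The partial rho between complex IV and ATP synthase was 0.28, between complex III and ATP synthase 0.12 and between complexes III and IV 0.0103. This comparison was chosen after the data were seen. Which property of the cells or libraries shifts the balance of short and long mRNAs was not tested.

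On the scale of all gene UMIs, nuclear and mitochondrial transcripts of the same complexes were weakly related. The sum of the 39 genes had a rho of 0.15 with the 13 mitochondrial mRNAs, those of complex I included (r 0.11, 0.0996 without 2 cells). Complex III genes had -0.0282 (r -0.0270) with MT-CYB, which encodes cytochrome b, complex IV genes 0.0320 (r -0.0095) with MT-CO1 to MT-CO3, which encode its catalytic core, and ATP synthase genes 0.14 (r 0.12) with MT-ATP6 and MT-ATP8. These values depend on the scale: with ribosomal protein genes, mitochondrial genes and the 10 most abundant genes left out of the totals, rho was 0.33 for the sum, 0.0915 for complex III, 0.20 for complex IV and 0.31 for ATP synthase. The mitochondrial mRNAs made up 3.58% ± 1.54 of gene UMIs with a coefficient of variation of 42.9%, against 2.92% ± 0.343 and 11.8% for the 39 genes. Single genes differed, from ATP5G2 and CYCS (0.45 each) to COX4I1 (-0.40), with a median of 0.0186 over 35 genes. Of these, 20 were positive, a count given here without a background over all genes.

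The sum had a rho of -0.26 with S phase genes (r -0.32), -0.17 with G2/M genes (r -0.10), -0.26 with gene UMIs (r -0.25) and -0.0625 with spike-in UMIs (r -0.11). Given the long-gene share the partial rho was 0.14, -0.19, 0.0345 and 0.15 in the same order. The lowest cell, number 66, had 25810 gene UMIs and 1.92% of them in the 39 genes, with 29.6% in ribosomal protein genes, near the mean of 29.3%. Cell 16, next at 2.01%, had 18.7% in ribosomal protein genes and 11.7% in long genes, the lowest and the highest of all 76 cells. The highest cells, numbers 5 and 75, had 3.64% and 3.56%, with 5.31% and 5.04% in long genes.

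**Figure D5:**
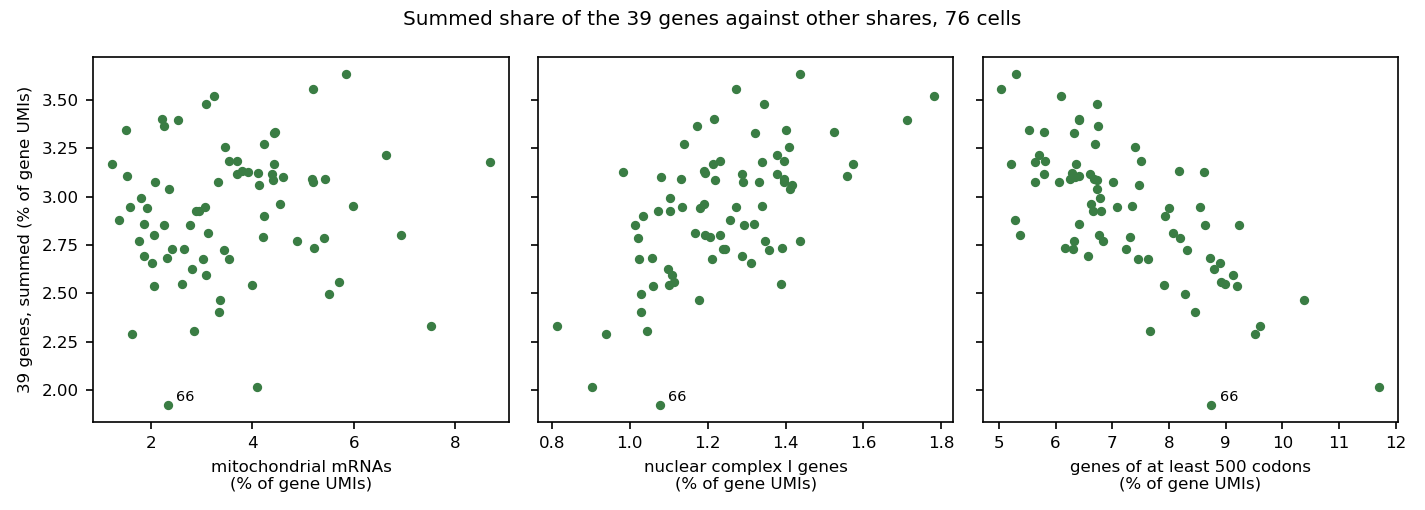
Summed share of the 39 genes (y axis, percent of gene UMIs) against that of mitochondrial mRNAs, nuclear complex I genes and genes of at least 500 codons (x axes, percent of gene UMIs), with 1 point for each of 76 cells. The Spearman correlation is 0.15, 0.54 and -0.68 from left to right, and cell 66 is marked at 1.92%.

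Of 1061 other genes with a mean of at least 3 UMIs, the 10 whose share was most like the summed share over 76 cells were RPL39 (rho 0.59), RPL30 (0.58), RPL27 (0.56), RPS26 (0.53), USMG5 (0.53), RPL23A (0.52), RPS29 (0.51), RPS7 (0.49), RPL37 (0.48) and NDUFA12 (0.48). USMG5 encodes a small subunit of ATP synthase that the naming rule does not take, and NDUFA12 a subunit of complex I. The 5 least like it were DEK (-0.53), HELLS (-0.49), ZC3H15 (-0.48), HSP90AA1 (-0.48) and USP1 (-0.47). The 50 genes most like it had a median of 128 codons and included 23 of the 81 ribosomal protein genes ranked, and the 50 least like it had a median of 643 codons, against 222 over all ranked genes.

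Other genes of the pathway were taken from a list of 47 assembly factors and further subunits, of which 44 were analysed here. All 44 had a UMI in at least 1 cell and 30 had a mean of at least 1, and their median mean level was 1.95 UMIs, against 15.2 for the 39 genes. The 5 highest were CHCHD2, a protein found in mitochondria and the nucleus (29.2 ± 14.8 UMIs, SD over 76 cells), USMG5 (25.6 ± 11.6), NDUFA4, now counted as a complex IV subunit (23.03 ± 12.3), ATPIF1, the inhibitor of ATP hydrolysis by the synthase (19.6 ± 9.63), and C14orf2, a further small ATP synthase subunit (18.4 ± 8.21). These 5 lay within the range of the 39 genes. Next came COX17, a copper chaperone of complex IV assembly, with a mean of 8.78 UMIs and a UMI in all 76 cells. The lowest of the list was COX18, which inserts a mitochondrially encoded subunit, with a mean of 0.0921 UMIs.

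Among 9 listed regulators of mitochondrial genes, TFAM had a mean of 3.32 UMIs, YY1 1.55 and PPRC1 1.39. TFAM packages mitochondrial DNA and helps start its transcription. NRF1 and GABPA, factors known to bind promoters of nuclear mitochondrial genes, had 0.237 and 0.316 UMIs and were each seen in 15 of 76 cells. PPARGC1A, the coactivator PGC-1alpha, had a UMI in 0 of 76 cells. The approximate 95% upper limit on the share of cells with a UMI is 3.95%, from 3 divided by 76. It sets no limit on cells that hold the mRNA.

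Promoter letters were searched in the RefSeq windows from 250 bases before to 50 bases after the annotated start, which matched 29 of the 39 genes. The NRF1 core GCATGCGC, on either strand, was present for 7 of 29 genes (24.1%), against 7.84% of 2282 genes tested that matched and 3.68% of all 27305 genes in the table. These 7 were ATP5C1, ATP5G2, ATP5I, ATP5J, COX5B, COX6A1 and CYCS, and the core stands in capitals in the runs of COX5B and ATP5I. The ETS core CCGGAAGT, bound by GABPA among others, was present for 7 (24.1%) against 13.4% and 4.95%, counting either strand. On the gene's own strand it was present for 3 (10.3%) against 8.19% and 2.72%, so that share was near that of the genes tested.

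The YY1 motif AAGATGGC was present for 4 of 29 genes (13.8%) on either strand, against 9.60% of genes tested and 3.52% of all. The CCAAT box was present for 15 (51.7%) on either strand, against 45.9% and 39.7%, a share near the background. In ATP5G1 it stands at -78 to -74 and -48 to -44, counted back from -1 as the base before the start. CTACANNTC, a core of the element bound by ZNF143, was added after the promoters had been read: 4 genes (13.8%) held it on either strand, against 7.76% and 4.48%. They were COX7C, COX7B, UQCR10 and ATP5O. COX7C, the most abundant gene, held it at -126 to -118 and at -74 to -66, COX7B at -122 to -114 and UQCR10 at -66 to -58, as the capitals show. Letters of different motifs overlapped in 0 of the 29 genes' windows, and the NRF1 core can overlap its own reverse complement. A match is a run of letters and not a shown binding site, and the genes of 1 motif were not compared for their levels.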

How the data were processed

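Whole-number UMI counts per gene and cell were deposited by the authors as 1 table of 76 HEK293 cells, with no normalization. Per the submitters' processing notes, cutadapt 1.2.1, STAR 2.4.0a and the build hg19 were used; their roles, the counting tool, the annotation and how cells were chosen are not given in the sources used. A line that repeats column numbers (0.197% of the sum of all values) was left out, and spike-ins were kept apart. Cells were numbered as in the labels, and the numbers pair nothing.

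Shares are percent of a cell's gene UMIs. Dispersion and correlation used the 2810 genes with a mean of at least 1 UMI. Intervals are exact 95% Clopper-Pearson or Poisson intervals. Correlations across cells are Spearman's rho of shares, with no p. Python 3.11.15, numpy 2.4.6, scipy 1.17.1, pandas 2.3.3 and matplotlib 3.10.9 were used. The dispersion and correlation steps were tested on simulated data. Old symbols were matched to GENCODE 29 (39 of 39) and to RefSeq promoters (29 of 39). Both are on GRCh38 and not on the build of the counts, so only names, coding lengths, overlaps and letters were taken from them.

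The genes and lists were chosen with earlier results of these data known. All 39 genes are accounted for; those with a mean of at least 1 UMI are given with values, and of other genes the 5 highest of the pathway list, the 10 most and the 5 least like the sum. COX17, COX18 and the regulators with values were named after their values were seen. Alternatives were other scales, thinning, shallow cells left out, tag collisions, pooled shares and pseudogenes added. Tag collisions were computed for 20736 UMI sequences, the number from the stated protocol, while the column names give a longer UMI design. The comparison given the long-gene share and CTACANNTC were chosen after seeing the data.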

Additional observations from a re-analysis of the deposited data

How the results depend on the processing

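No paired analysis was possible because the cells form 1 group. Of the alternatives, 130 values stayed within 1 SD (counts and mean rho within 1.5 times, a single rho within its 95% sampling interval), 48 moved further and 8 changed sign from a rho whose interval lay off 0. With those near 0 counted, 18 changed sign. With spike-in UMIs as the scale, which keeps differences in total RNA, the coefficients of variation were 34.2% for the sum, 36.02% for complex III, 35.9% for complex IV and 33.9% for ATP synthase, and 35 genes exceeded the spike-in limit. Mean pairwise rho was then 0.43 (within complexes 0.44, between 0.42), rho III with IV 0.86, III with ATP synthase 0.86, IV with ATP synthase 0.92, and rho of the sum 0.63 with mitochondrial mRNAs, 0.90 with NDUF and 0.90 with ribosomal protein genes, 0.78 with glycolysis, 0.62 with S phase (sign changed), 0.65 with G2/M (sign changed), 0.85 with gene UMIs (sign changed), 0.31 with spike-in UMIs (sign changed) and 0.73 with long genes (sign changed); NDUF and ribosomal protein genes had 0.72 and 0.72 with long genes (both with a changed sign). With ribosomal protein genes, mitochondrial genes and the 10 most abundant genes left out of the totals, shares were 4.60%, 0.922%, 1.59% and 1.97% for the sum, III, IV and ATP synthase, mean pairwise rho was 0.0999 and between complexes 0.0982, rho III with IV was 0.50, III with ATP synthase 0.52, the sum with NDUF 0.71 and with ribosomal protein genes 0.67, and 6 of the 10 most similar genes were shared. Thinned to 10940 UMIs, mean pairwise rho was 0.0424 (within 0.0454, between 0.0410) and rho IV with ATP synthase 0.32. Given the long-gene share it was 0.0353 (within 0.0433, between 0.0316), rho III with IV 0.0103, IV with ATP synthase 0.28, the sum with NDUF 0.25, with ribosomal protein genes -0.0749 (sign changed), S phase 0.14 (sign changed) and gene UMIs 0.0345 (sign changed). On the gene's strand only, 3 promoters (10.3%) held the ETS core, against 8.19% of genes tested. The causes were not tested. At a median of 20966 gene UMIs per cell, genes with few UMIs are governed by counting error.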
